A study of Homo sapiens with 20 samples.

Results

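Translesion polymerases copy damaged DNA templates at which the replicative polymerases stall, at the price of lower fidelity. They load onto the sliding clamp PCNA after the E3 ligase RAD18 has attached a single ubiquitin to it, and they are used most where replication forks stall often. POLQ joins broken ends at short stretches of matching bases, and PRIMPOL restarts synthesis ahead of a block, so that both deal with the same stalled forks in other ways. The genes described here are *POLH*, *POLK*, *REV1*, *REV3L*, *MAD2L2*, *POLQ*, *POLN*, *PRIMPOL* and *RAD18*, chosen by symbol. Of these 9 genes, 8 were measured, each by 1 transcript cluster (the set of probes for a gene) among 17709 clusters with a single gene symbol and 21448 in all. *POLN* was not analysed here.

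Transcripts were measured in prexasertib-resistant and parental cells of 3 human tumour lines. Prexasertib inhibits CHK1, the kinase that restrains origin firing and protects stalled forks. The squamous lung carcinoma line NCI-H520 gave 3 resistant and 3 parental arrays. The alveolar rhabdomyosarcoma line SJCRH30 also gave 3 resistant and 3 parental arrays, and Rh41, from the same tumour type, gave 5 resistant and 3 parental arrays, 20 in all. Resistant NCI-H520 was 1 line raised under stepwise increases of drug. Both SJCRH30 lines were grown out of mouse xenografts, the resistant one from a tumour that had regrown after prexasertib and its parental partner from a vehicle-treated tumour, and the study also describes sub-culture with drug, so tumour of origin and resistance cannot be told apart in that pair. The study describes the resistant Rh41 samples as independently escalated cultures kept beside cultures in solvent. No treatment other than prexasertib, and no genetic change made by the authors, is described for these groups, and whether drug was present when RNA was taken is not stated in the sources used here.

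The values are log2 RMA values, normalized array signals on a log scale. The Rh41 arrays had been normalized apart from the other 12 on a scale whose standard deviation was smaller by a ratio of 1.502 (1.99 in Rh41 and 2.99 in the other lines), so Rh41 is set beside the other lines by direction and not by size. The highest value was 13.10 in Rh41 and 19.42 in the other lines. Which scale is nearer to true expression ratios is not stated, so every fold below holds on its deposited scale alone. Arrays of the same group correlated at 0.983 to 0.994. NCI-H520 carried epithelial transcripts (5 of 6 measured markers at a mean log2 value of 5 or more in its resistant and in its parental arrays, with the basal keratin *KRT5* below that level in both), and SJCRH30 and Rh41 carried all 7 rhabdomyosarcoma markers at 5 or more. That level did not separate the lines, since only 1 of 7 rhabdomyosarcoma markers in resistant and 2 of 7 in parental NCI-H520 arrays lay under it. The list means did. The epithelial markers averaged 11.78 to 11.89 per parental NCI-H520 array and 5.70 to 5.86 per parental SJCRH30 array. The rhabdomyosarcoma markers averaged 5.64 to 5.80 per parental NCI-H520 array and 11.87 to 11.98 per parental SJCRH30 array. No measured member had a mean under 5 in any group, but that level does not show that a gene is expressed. The median value of an array was 5.97 in Rh41 and 6.05 in the other lines. In Rh41, *PRIMPOL* (means of 5.62 in resistant and 5.51 in parental arrays) and resistant *POLQ* (5.89) lay under that median. Their values there may be near background. "Rose" and "fell" are kept for changes of more than 1.5-fold whose limma adjusted p (Benjamini-Hochberg over 17709 clusters) was under 0.05, and SE is the moderated standard error of the fit.

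The promoters of 3 members are shown. Their genes carried differences described below, and their windows hold a short E2F core, which was part of the choice. This core is the element bound by the factors that switch on replication genes before S phase. *RAD18* and *POLH*, with parental differences of 1.92 and 1.01, are not shown, and their windows held no E2F core. The shown set therefore cannot tell whether differences go with this core. Each runs from 250 bases before a RefSeq transcription start to 30 bases after it, on the minus strand of GRCh38.p14, with motif matches in capitals. The *POLQ* stretch is chr3:121545959-121546238. The *REV3L* stretch, chr6:111483189-111483468, and the *MAD2L2* stretch, chr1:11681119-11681398, belong to starts that lie inside the outermost gene boundary, and each of these genes has another RefSeq start whose window held no such match.
POLQ: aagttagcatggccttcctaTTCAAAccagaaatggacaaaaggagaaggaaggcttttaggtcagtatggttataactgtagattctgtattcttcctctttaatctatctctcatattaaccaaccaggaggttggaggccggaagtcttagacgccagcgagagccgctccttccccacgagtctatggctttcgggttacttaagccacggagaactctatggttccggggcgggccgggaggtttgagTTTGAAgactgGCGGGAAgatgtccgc
REV3L: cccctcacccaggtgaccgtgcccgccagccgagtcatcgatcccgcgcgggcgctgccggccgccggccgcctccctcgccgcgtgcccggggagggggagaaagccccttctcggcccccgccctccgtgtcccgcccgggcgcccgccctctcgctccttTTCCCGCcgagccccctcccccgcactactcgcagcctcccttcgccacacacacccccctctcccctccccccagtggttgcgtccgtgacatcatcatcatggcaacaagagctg
MAD2L2: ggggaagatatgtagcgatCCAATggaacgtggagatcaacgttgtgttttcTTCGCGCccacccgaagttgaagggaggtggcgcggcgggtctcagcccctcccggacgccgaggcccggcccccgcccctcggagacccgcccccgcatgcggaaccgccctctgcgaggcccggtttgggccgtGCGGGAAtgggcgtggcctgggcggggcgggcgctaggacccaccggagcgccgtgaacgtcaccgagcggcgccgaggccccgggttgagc
The E2F core was searched on both strands as TTCCCGC or TTGGCGC or TTCGCGC or TTGCCGC, the cell cycle homology region (CHR) of G2/M promoters as TTTGAA, and the CCAAT box as CCAAT, letters that were chosen after these windows had been seen. In *POLQ* an E2F core began 15 bases and a CHR 4 bases into the transcribed strand, with another CHR match starting at base -230. In *REV3L* the E2F core began at base -87, and in *MAD2L2* E2F cores began at bases -198 and -62 and a CCAAT box at base -231. Over the full RefSeq windows, which run on for another 20 bases, *REV1* had an E2F core from base 30 and *PRIMPOL* a CHR from base -12, and the windows of *POLH*, *POLK* and *RAD18* held none of these letters. Among all 27305 genes with a window, 15.3% held the E2F core, 18.2% the CHR and 39.7% the CCAAT box, so each is common. These are matches of letters and say nothing of binding.

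The first question was which of these genes changed in resistant NCI-H520 cells. *POLQ* rose 2.04-fold and was the single member past the threshold. The others moved in both directions by less than the test could separate. *POLQ* (3:121431431-121545988), the polymerase-helicase of theta-mediated end joining, had log2 values of 8.28, 8.16 and 8.07 in resistant NCI-H520 arrays, against 7.73, 6.56 and 7.14 in parental arrays. Every resistant array lay above every parental array, and the parental arrays were the more scattered. The means were 8.17 ± 0.10 in resistant and 7.14 ± 0.58 in parental arrays (SD, n = 3 each), a log2 change of 1.03 (SE 0.27, 95% confidence interval 0.44 to 1.62, limma adjusted p = 0.0170). The call was lost without parental replicate 2, the lowest array (log2 change 0.74, limma adjusted p = 0.0586), and without resistant replicate 1 (0.98, adjusted p = 0.0619), and when mapped onto the narrower Rh41 scale it was 0.50 (adjusted p = 0.0912).

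The 3 Y-family polymerases among the members did not pass the threshold in NCI-H520. *POLH* (6:43576185-43620523), which copies past ultraviolet-induced thymine dimers, had log2 values of 7.01, 7.42 and 6.99 in resistant and 6.77, 6.62 and 6.65 in parental NCI-H520 arrays. These did not overlap, with a log2 change of 0.46 (SE 0.19, limma adjusted p = 0.133). *POLK* (5:75510774-75609991), which copies past bulky adducts in the minor groove, and *REV1* (2:99400477-99490202), a deoxycytidyl transferase that gathers the other translesion polymerases, had log2 changes of -0.12 and 0.07 with overlapping arrays. *RAD18* (3:8877075-8963472) had a log2 change of 0.34 (SE 0.22, adjusted p = 0.355), also with overlapping arrays.

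Polymerase zeta extends from the base that a Y-family enzyme has placed. Its catalytic subunit *REV3L* (6:111299033-111483711) had log2 values of 7.77, 8.61 and 8.37 in resistant NCI-H520 arrays, against 8.44, 8.46 and 8.46 in parental arrays. The parental arrays were almost equal and the resistant ones spread to both sides of them (log2 change -0.21, SE 0.23, limma adjusted p = 0.616). Its partner *MAD2L2* (1:11674480-11691830), also called REV7, which serves the shieldin complex at broken ends too, had log2 values of 10.49, 10.52 and 10.41 in resistant arrays and 10.002, 10.32 and 10.31 in parental arrays, separate from each other but with a change of only 0.26 (SE 0.18, adjusted p = 0.394). *PRIMPOL* (4:184649738-184694952) lay lower in all resistant arrays, at 6.12, 6.20 and 6.05, against 6.99, 6.48 and 6.39 in parental arrays (log2 change -0.49, SE 0.21, adjusted p = 0.129).

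In all, 1 of 8 members rose in NCI-H520 and none fell, where 10.1% of all clusters rose and 9.90% fell. The share of members called was 12.5%, beside 20% of all clusters in either direction. With 1 of 8 members called, these shares cannot be told apart. The median log2 change of the members was 0.17, against 0.01 over all clusters. Resistant and parental arrays did not overlap for 4 of 8 members (*POLQ*, *POLH* and *MAD2L2* above, *PRIMPOL* below), and for 34.5% of all clusters.

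**Figure D1:**
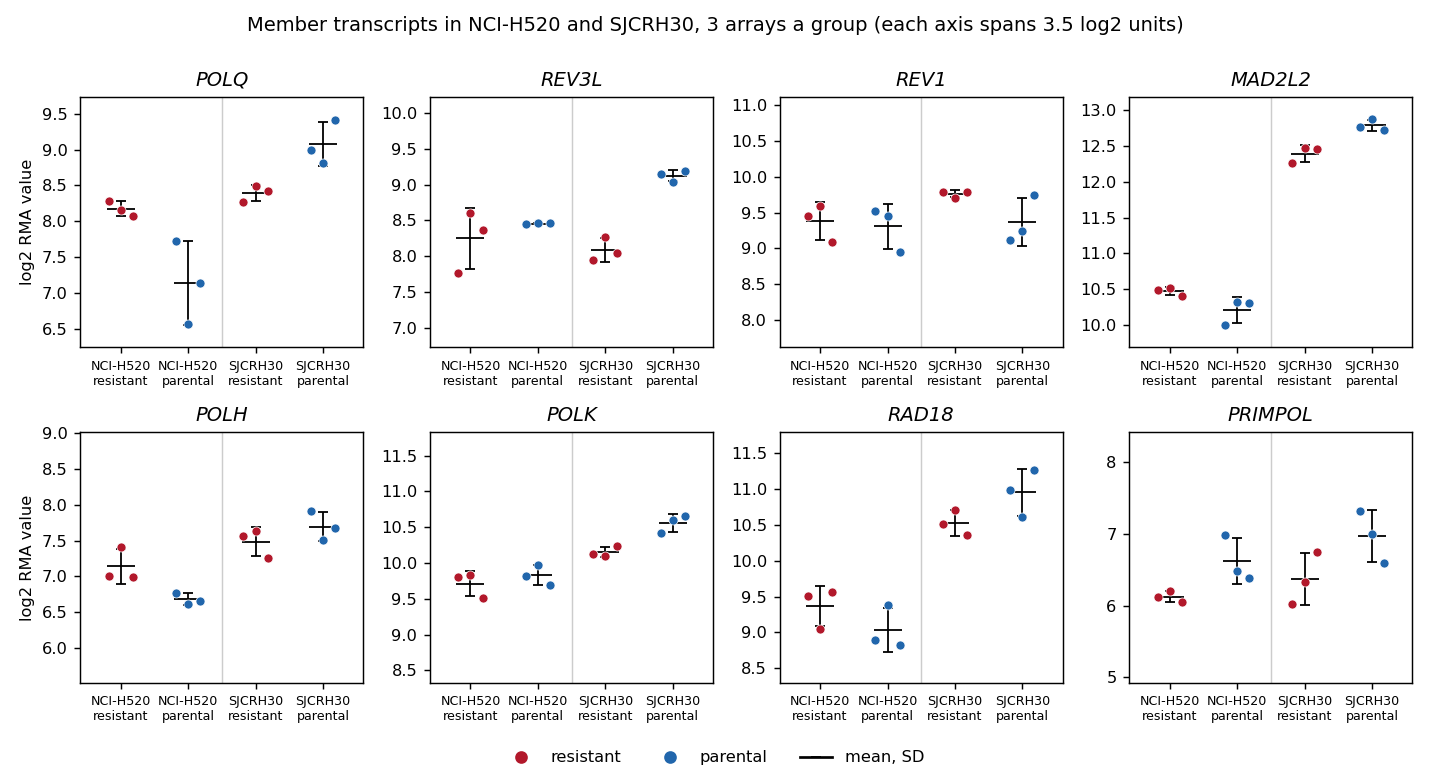
Log2 RMA values (vertical axis) of the 8 measured members on the 12 arrays of NCI-H520 and SJCRH30 (horizontal axis, resistant left of parental), 1 point an array, with the mean and SD of each group of 3. *POLQ* lies higher in resistant than in parental NCI-H520 arrays (means 8.17 and 7.14) and lower in resistant than in parental SJCRH30 arrays (8.40 and 9.08), and *REV3L* separates in SJCRH30 alone of these lines (8.09 and 9.12).

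In resistant SJCRH30 cells *REV3L* fell 2.05-fold and *POLQ* 1.61-fold, and no member rose. The log2 change was negative for 7 of 8 members, most of them uncalled, where the median over all clusters was 0.01. *REV3L* had log2 values of 7.95, 8.27 and 8.04 in resistant SJCRH30 arrays, against 9.15, 9.04 and 9.18 in parental arrays. The gap between the nearest arrays of the groups was wider than the range within either. The means were 8.09 ± 0.17 in resistant and 9.12 ± 0.07 in parental arrays (SD, n = 3 each), a log2 change of -1.04 (SE 0.19, 95% confidence interval -1.44 to -0.63, limma adjusted p = 0.00180). Leaving out any 1 of the 6 arrays kept the call.

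*POLQ* had log2 values of 8.27, 8.50 and 8.42 in resistant SJCRH30 arrays, against 8.996, 8.82 and 9.42 in parental arrays, again without overlap. The log2 change was -0.68 (SE 0.21, 95% confidence interval -1.13 to -0.24, limma adjusted p = 0.0342). This call was lost when any of 5 of the 6 arrays was left out, at adjusted p from 0.0594 to 0.122, and held only without parental replicate 2. On the narrower scale of the Rh41 arrays neither fall passed the threshold (log2 change -0.53 with adjusted p = 0.0221 for *REV3L*, and -0.35 with adjusted p = 0.107 for *POLQ*).

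The remaining SJCRH30 values were smaller or more scattered. *MAD2L2* had log2 values of 12.26, 12.47 and 12.45 in resistant and 12.77, 12.88 and 12.72 in parental arrays, which did not overlap (log2 change -0.40, SE 0.18, limma adjusted p = 0.160). *POLK* was separate too, at 10.13, 10.09 and 10.23 in resistant and 10.41, 10.61 and 10.65 in parental arrays (log2 change -0.40, SE 0.18, adjusted p = 0.153). *PRIMPOL* had the larger change of -0.61 but its arrays overlapped, at 6.02, 6.33 and 6.75 in resistant and 7.32, 6.996 and 6.60 in parental arrays (SE 0.24, adjusted p = 0.105).

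*RAD18* had a log2 change of -0.43 (adjusted p = 0.196) and *POLH* one of -0.21 (adjusted p = 0.532) in SJCRH30. *REV1* was the member with a positive value, 0.39 (SE 0.21, limma adjusted p = 0.228), with 9.79, 9.70 and 9.79 in resistant and 9.12, 9.24 and 9.75 in parental arrays, where parental replicate 3 lay among the resistant arrays. Thus 2 of 8 members fell where 9.28% of all clusters fell and 18.7% passed in either direction. All resistant arrays lay below all parental arrays for 4 of 8 members (*REV3L*, *POLQ*, *MAD2L2* and *POLK*) and for 16.8% of all clusters. The median over the members was -0.42, against 0.01 over all clusters.

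By limma 0 of 8 members passed the threshold in Rh41, where 8.78% of all clusters did, and 2 of 8 had an unadjusted p under 0.05. *REV1* and *MAD2L2* nevertheless had lower values in every resistant array, and their adjusted p lay under 0.05 with changes smaller than 1.5-fold on the narrower Rh41 scale. *REV1* had log2 values of 7.12, 7.09, 6.81, 6.999 and 6.98 in the 5 resistant Rh41 arrays, against 7.46, 7.61 and 7.39 in the parental arrays. The log2 change was -0.49 (SE 0.10, 95% confidence interval -0.72 to -0.25, limma adjusted p = 0.00762).

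*MAD2L2* was the tightest of the members in Rh41, with 9.08, 9.11, 9.21, 9.17 and 9.17 in resistant arrays and 9.55, 9.55 and 9.58 in parental arrays. Its log2 change was -0.41 (SE 0.09, 95% confidence interval -0.60 to -0.22, limma adjusted p = 0.00635). By adjusted p alone, 2 of 8 members passed, both lower in resistant cells, where 20.5% of all clusters passed and 9.19% passed and were lower. These were also the 2 members whose resistant arrays all lay below the parental ones, as 12.6% of all clusters did. With the values of all 20 arrays quantile-normalized together both passed the full threshold (log2 change -0.76 for *REV1* and -0.60 for *MAD2L2*), as they did on the wider scale of the other lines (-0.94 and -0.73).

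**Figure D2:**
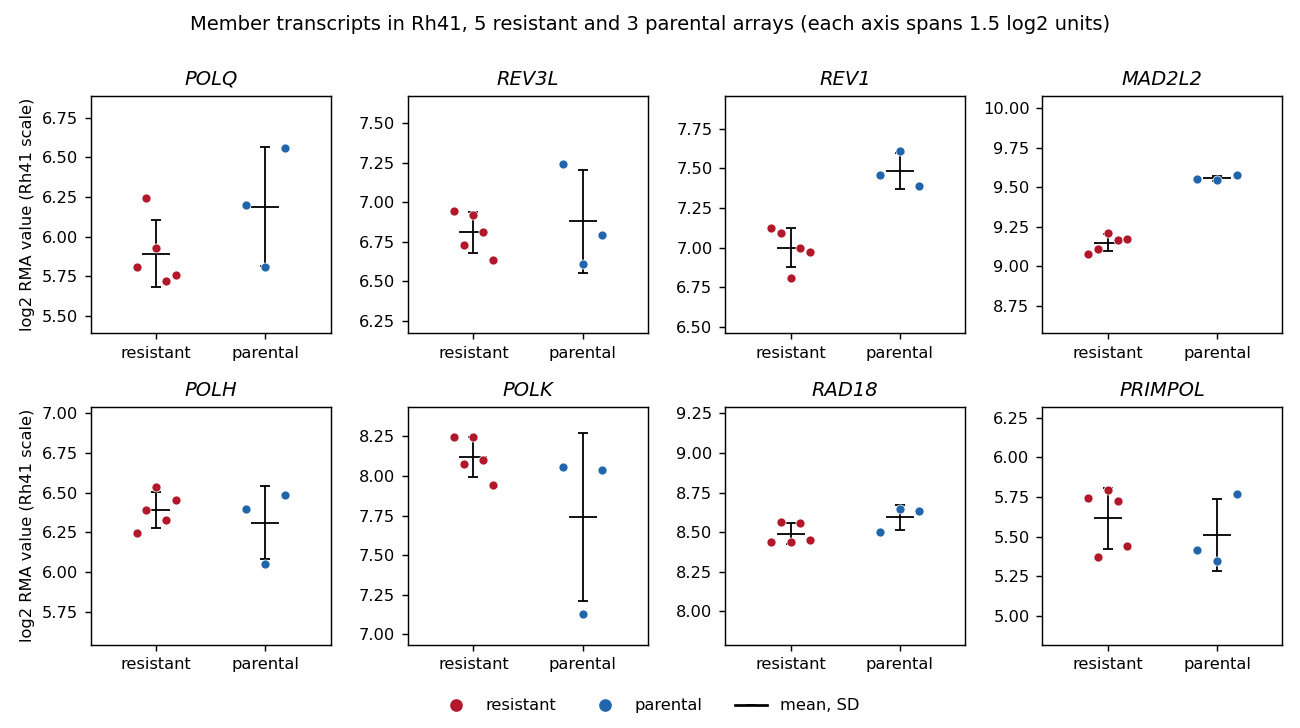
Log2 RMA values on the Rh41 scale (vertical axis) of the 8 measured members in 5 resistant and 3 parental Rh41 arrays (horizontal axis, resistant left of parental), 1 point an array, with the mean and SD of each group. *REV1* (highest resistant array 7.12, lowest parental array 7.39) and *MAD2L2* (9.21 and 9.55) separate without overlap, and the other 6 members overlap.

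The other Rh41 members overlapped between groups. *POLQ* had log2 values of 5.81, 6.25, 5.93, 5.72 and 5.76 in resistant and 6.20, 5.81 and 6.56 in parental Rh41 arrays, a log2 change of -0.30 (SE 0.17, limma adjusted p = 0.260). *POLK* had the highest positive value, 0.38 (SE 0.19, adjusted p = 0.197), which was 0.08 without parental replicate 2, the array at 7.13 beside parental arrays at 8.05 and 8.04. *REV3L*, *POLH*, *PRIMPOL* and *RAD18* had log2 changes from -0.10 to 0.10. The median over the 8 members was -0.09, against -0.03 over all clusters.

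**Figure D3:**
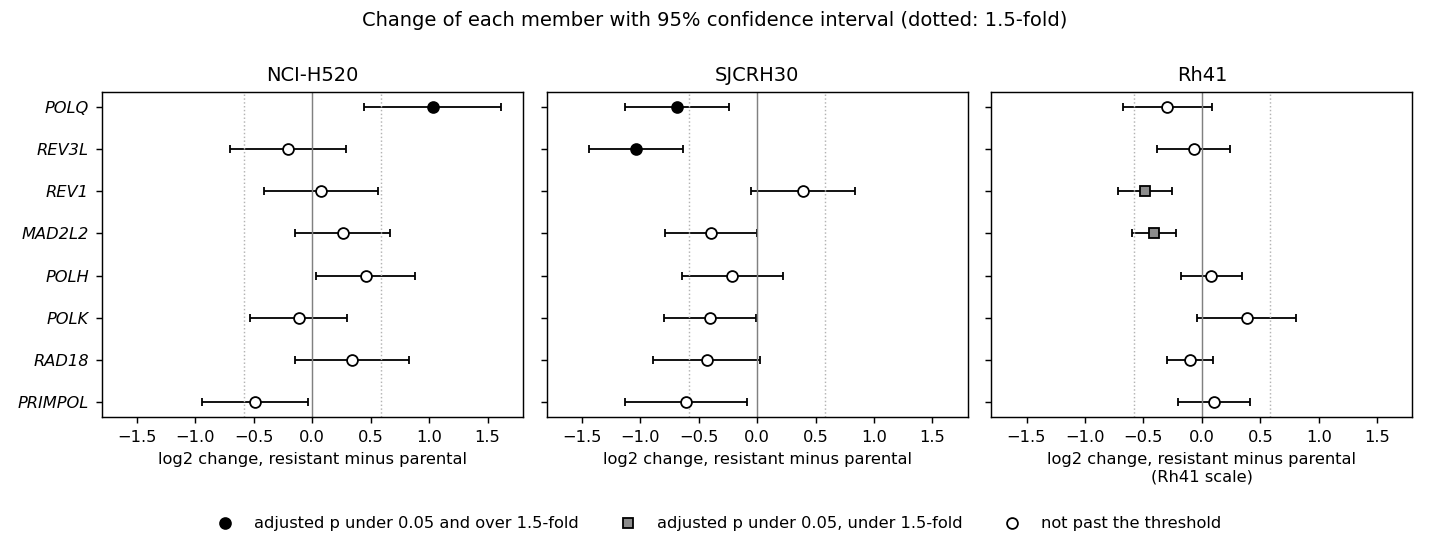
Log2 change, resistant minus parental (horizontal axis), of each member (vertical axis) in NCI-H520, SJCRH30 and Rh41, with 95% confidence intervals from the limma fit. Filled circles pass the threshold (*POLQ* up in NCI-H520, *POLQ* and *REV3L* down in SJCRH30), grey squares pass by adjusted p alone (*REV1* and *MAD2L2* in Rh41), and dotted lines mark 1.5-fold.

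Whether NCI-H520 and SJCRH30 differed in their response was tested directly, as the resistant minus parental change in NCI-H520 minus that in SJCRH30, in 1 fit of their 12 arrays. This comparison uses the same arrays as the comparisons within each line. *POLQ* differed by 1.71 on the log2 scale (SE 0.35, 95% confidence interval 0.98 to 2.45, limma adjusted p = 0.00144), the change being upward in NCI-H520 and downward in SJCRH30. The *POLQ* difference stayed past the threshold when each of the 12 arrays was left out in turn, with values from 1.42 to 2.01. *REV3L* differed by 0.83 (SE 0.29, adjusted p = 0.0477), a change of -0.21 in NCI-H520 and -1.04 in SJCRH30, and its call was lost without any 1 of 10 of the 12 arrays (adjusted p from 0.0646 to 0.129 among those).

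For the other members this difference did not pass the threshold. The nearest were *MAD2L2* at 0.66 (95% confidence interval 0.14 to 1.17, limma adjusted p = 0.0608), *POLH* at 0.67 (0.10 to 1.24, adjusted p = 0.0877) and *RAD18* at 0.77 (0.11 to 1.43, adjusted p = 0.0894). *REV1* had the single negative difference, -0.32 (-0.96 to 0.33, adjusted p = 0.530). In total 2 of 8 members passed, against 23.1% of all clusters, and the median difference was 0.66 over the members and 0.00 over all clusters. Rh41 was not put into such a test because of its scale.

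The parental lines already differed. In parental SJCRH30, 6 of 8 members were higher than in parental NCI-H520 and none was lower, where 22.2% of all clusters were higher. *MAD2L2* differed by 2.58 on the log2 scale (SE 0.17, limma adjusted p = 4.91e-10), with parental means of 12.79 ± 0.08 in SJCRH30 and 10.21 ± 0.18 in NCI-H520 (SD, n = 3 each). *POLQ* differed by 1.94 (SE 0.25, adjusted p = 2.68e-06), with means of 9.08 ± 0.31 in SJCRH30 and 7.14 ± 0.58 in NCI-H520. *RAD18* differed by 1.92 (SE 0.22, adjusted p = 7.84e-07), with means of 10.96 ± 0.33 in SJCRH30 and 9.04 ± 0.30 in NCI-H520.

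The smaller parental differences were 1.01 for *POLH* (limma adjusted p = 0.000219), 0.73 for *POLK* (adjusted p = 0.00207) and 0.67 for *REV3L* (adjusted p = 0.0117). *PRIMPOL* at 0.36 (95% confidence interval -0.14 to 0.85) and *REV1* at 0.06 (-0.40 to 0.52) did not pass. For the 6 members that passed, every parental SJCRH30 array lay above every parental NCI-H520 array, as it did for 27.0% of all clusters. On the narrower Rh41 scale, the differences of *POLH*, *POLK* and *REV3L* were under 1.5-fold.

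The levels of *POLQ* over the 12 arrays ran, from high to low, parental SJCRH30 (9.08), resistant SJCRH30 (8.40), resistant NCI-H520 (8.17) and parental NCI-H520 (7.14). Of the neighbours in this order, the resistant lines overlapped between arrays. The levels of *REV3L* ran parental SJCRH30 (9.12), parental NCI-H520 (8.45), resistant NCI-H520 (8.25) and resistant SJCRH30 (8.09), and the groups at the lower end of this order (resistant NCI-H520 with either of its neighbours) overlapped between arrays. *RAD18*, *MAD2L2* and *POLK* kept the order of the lines, with every SJCRH30 array above every NCI-H520 array. By their means *POLH* and *POLQ* kept it too, but the arrays of their resistant groups overlapped.

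Genes that act with these polymerases were counted by lists, which were chosen with earlier results of these data known. The shares of all clusters stand beside the counts of these lists and of the marker lists below. For lists chosen so, these shares are not an independent comparison. Of all clusters 10.1% rose and 9.90% fell in NCI-H520, 9.42% rose and 9.28% fell in SJCRH30, and 5.69% rose and 3.08% fell in Rh41. Among 19 measured regulators of translesion synthesis, 7 rose and 2 fell in resistant NCI-H520 (median log2 change 0.54). The clamp *PCNA* rose, with a mean log2 value of 12.19 in resistant and 9.13 in parental NCI-H520 arrays (log2 change 3.06, limma adjusted p = 1.29e-06). *DTL*, the substrate receptor of a ubiquitin ligase that acts on PCNA-bound proteins, rose by 2.44. *POLI*, a further Y-family polymerase, fell by 3.26, with means of 6.18 in resistant and 9.43 in parental NCI-H520 arrays (adjusted p = 2.99e-06), and *HLTF*, a translocase and ubiquitin ligase for PCNA, fell by 0.59.

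In resistant SJCRH30, 1 of these 19 regulators rose and 4 fell (median -0.06). *UBE2A*, one of the RAD6 ubiquitin-conjugating enzymes that partner RAD18, fell by 2.16, with means of 9.85 in resistant and 12.01 in parental SJCRH30 arrays (limma adjusted p = 5.99e-06). *USP1*, which removes ubiquitin from PCNA, rose by 0.99, whereas its activating partner *WDR48* fell by 0.81. *HLTF*, outside the 2 largest falls, fell in SJCRH30 as well, by 0.62 (limma adjusted p = 0.0411). In resistant Rh41 none rose and 4 fell (median -0.18), among them *HLTF* by 0.94 and *UBE2V2*, a cofactor in PCNA polyubiquitination, by 0.79.

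Of 14 measured partners of POLQ in end joining, 7 rose and 1 fell in resistant NCI-H520 (median 0.74), 1 rose and 2 fell in SJCRH30 (median -0.06), and 1 rose and 2 fell in Rh41 (median -0.21). The flap nuclease *FEN1* rose by 2.29 and *PARP1*, which marks breaks with poly(ADP-ribose), by 0.95 in NCI-H520, where *RAD50*, of the MRE11 end-processing complex, fell by 1.04. In Rh41 *FEN1* fell by 1.22 and *XRCC1*, a scaffold of single-strand break repair, by 0.64, and *RAD50* rose by 0.60. In SJCRH30 the nuclease *MRE11* rose by 0.94, while *TOPBP1*, an activator of the ATR kinase, fell by 0.79 and *RAD1*, of the checkpoint clamp, by 0.74.

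Among 9 measured partners of MAD2L2 in shieldin and in the remodelling of its fold, 2 rose and none fell in NCI-H520, 2 rose and 1 fell in SJCRH30, and 1 rose and none fell in Rh41. *TP53BP1*, which shields broken ends from resection, rose by 1.10 in NCI-H520. *MAD2L1BP*, an adaptor for the ATPase TRIP13 that opens such folds, rose by 0.65 in NCI-H520 and by 0.67 in SJCRH30. The shieldin subunit *SHLD2* fell by 1.04 and *RIF1*, which links TP53BP1 to shieldin, rose by 0.59 in SJCRH30, and *TRIP13* rose by 0.63 in Rh41. Of 4 other measured repair polymerases, *POLB*, of base excision repair, rose by 1.16 and *POLG*, of mitochondria, by 0.61 in SJCRH30, and none passed in NCI-H520 or Rh41.

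Markers of the cell cycle moved in the same samples. In bulk RNA, more cells in a phase and more transcript per cell cannot be told apart. In NCI-H520, where *POLQ* rose, all 10 S phase markers rose (median log2 change 1.76), and their mean level per array was 9.87 to 10.04 in resistant and 7.72 to 8.16 in parental arrays. The largest rises were those of *GINS2*, of the replicative helicase (3.89), and *CCNE2*, a cyclin of S phase entry (3.23). There 9 of 10 G2/M markers rose (median 1.59), with mean levels of 11.72 to 11.76 in resistant and 10.24 to 10.43 in parental arrays. The part of either list in the *POLQ* change was not tested.

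In SJCRH30, where *POLQ* and *REV3L* fell, 2 of 10 S phase markers rose and none fell (median 0.28), with mean levels of 10.22 to 10.37 in resistant and 9.998 to 10.04 in parental arrays. Of the G2/M markers, 1 rose (the spindle checkpoint kinase *BUB1*, 0.86) and 5 fell (median -0.58), with mean levels of 11.99 to 12.09 in resistant and 12.36 to 12.49 in parental arrays. Cyclin A2, *CCNA2*, fell by 1.08 and the proliferation marker *MKI67* by 0.93. In Rh41, 2 S phase markers (*CCNE2* by 1.13 and the histone RNA-binding *SLBP* by 0.61) and 1 G2/M marker (*CCNA2* by 0.88) fell and none rose. Between the parental lines, 8 of 10 S phase and 9 of 10 G2/M markers were higher in SJCRH30 than in NCI-H520. The part of these lists in the members' values was not tested.

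**Figure D4:**
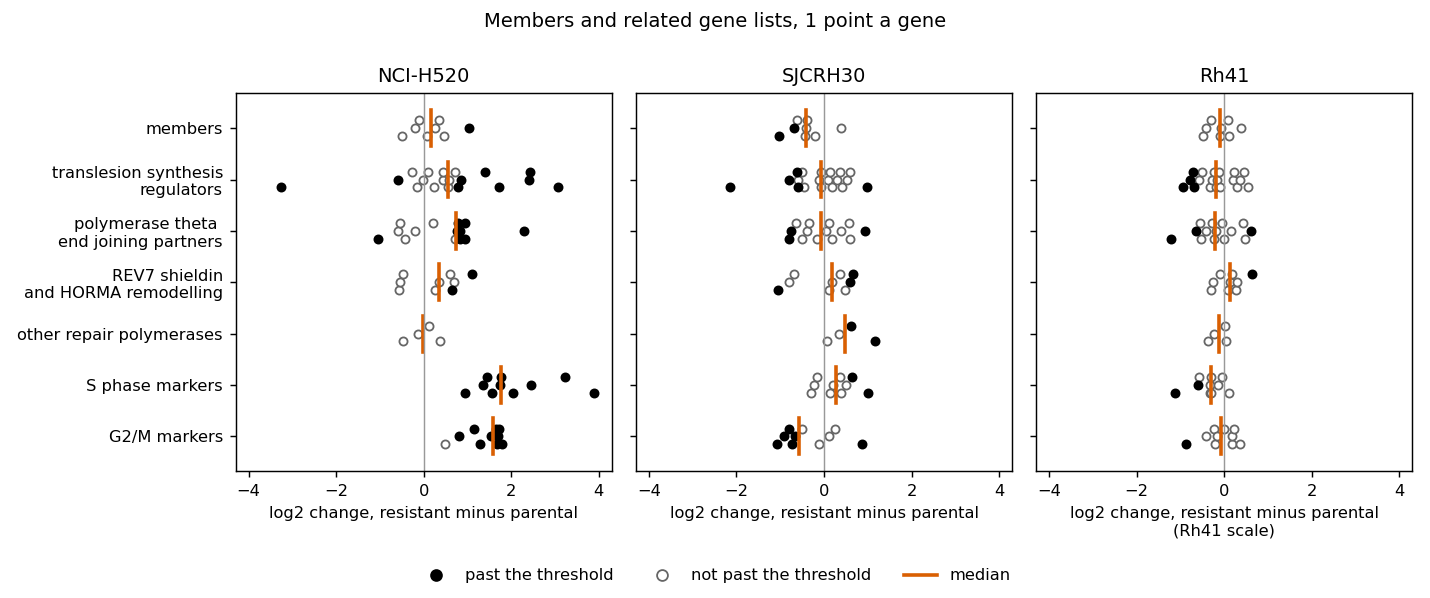
Log2 change, resistant minus parental (horizontal axis), of the 8 members and of the genes of 6 related lists (vertical axis) in each line, 1 point a gene, filled where past the threshold, with the list's median as a bar. In NCI-H520 the S phase and G2/M markers lie to the right (medians 1.76 and 1.59) and the members' median is 0.17, while in SJCRH30 the members' median is -0.42 and that of the G2/M markers -0.58.

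Markers of other cell types were read in the same way. Leukocyte and endothelial markers did not pass the threshold in any line (0 of 4 measured in each list). *PTPRC*, the pan-leukocyte CD45, was under a log2 value of 5 in all 6 groups, but other markers of these lists were not. In resistant NCI-H520 arrays *CD3E* had a mean of 5.80 and *CD14* one of 5.45. The endothelial *VWF* lay above 5 in all 6 groups. Per group, 1 to 3 of the 4 markers in each list were under 5. Of the squamous and epithelial markers, 5 of 6 rose in resistant NCI-H520, with mean levels of 13.11 to 13.21 in resistant and 11.78 to 11.89 in parental arrays. In SJCRH30, where *POLQ* and *REV3L* fell, 2 of these 6 fell, *EPCAM* and *KRT18* by 1.26 each. The mean levels of the list there were 5.15 to 5.52 in resistant and 5.70 to 5.86 in parental arrays. *EPCAM* and *KRT18* were weak in SJCRH30, with means of 4.31 and 4.28 in resistant and 5.58 and 5.54 in parental arrays. None of the 6 passed in Rh41. Of the 7 rhabdomyosarcoma markers, *FGFR4* rose by 0.83 in NCI-H520, *MYOG* fell by 0.87 in SJCRH30, and in Rh41 *DES* rose by 0.86 while *FGFR4* fell by 0.78 and *MYOD1* by 0.62. Their mean levels overlapped between resistant and parental arrays in each line. Of the fibroblast and stroma markers, 1 of 5 rose in SJCRH30 (*THY1*, log2 change 2.71) and 1 of 5 in Rh41 (*PDGFRB*, 1.09). Their part in the members' changes was not tested.

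The clusters whose profile over the 12 arrays of NCI-H520 and SJCRH30 lay nearest to *REV3L*, by the root mean square difference of centred log2 values, were *SEC16A* (0.18), *SLC15A4* (0.21) and *MBOAT4* (0.21), against a median of 0.62 over all clusters. Those nearest to *POLQ* were *SMARCC1* (0.25), *RBM6* (0.25) and *CGNL1* (0.26), against a median of 0.84. The log2 change of *SMARCC1* was 1.10 in NCI-H520 and -0.39 in SJCRH30, beside 1.03 and -0.68 for *POLQ*. That of *SLC15A4* was -0.23 in NCI-H520 and -1.13 in SJCRH30, beside -0.21 and -1.04 for *REV3L*. These likenesses are descriptions over 12 arrays and were not tested.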

How the data were processed

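Total RNA of cultured cells was hybridized to Clariom S human arrays. The deposited values are log2 RMA values per transcript cluster, which the authors background-corrected, quantile-normalized and summarized before deposit. No source used here names the RMA version. Nothing was normalized again for the main tests. Sorted values were equal within 0.01 among the 8 Rh41 arrays and among the other 12, but not between these sets. Arrays carry no read depth, so their number limits the precision, and folds hold on each deposited scale.

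Clusters were named from the platform annotation: 17709 of 21448 had 1 symbol (17687 distinct symbols), 0 had several and 3739 had none. Gene positions and promoters came from RefSeq (GRCh38.p14), where all 9 genes had a window. For each line a separate limma 3.58.1 model was fitted (lmFit, eBayes, two-sided) in R 4.3.3. The difference between changes and the parental difference came from 1 fit of 12 arrays with 4 group means. The fits were tested on simulated data. P-values measure the spread between the labelled biological replicates, which for NCI-H520 and SJCRH30 are cultures of 1 line. The labels do not state that replicate numbers pair samples, and they were not used as pairs in the main tests. Same-numbered deviations correlated at -0.18 to 0.28, with both ends of this range in Rh41, and at 0.04 to 0.11 in NCI-H520. Low signal means a group mean under log2 5.

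Members and lists were chosen with earlier results of these data known. Named genes were all members, up to 2 largest rises and 2 largest falls past the threshold per list and line, and the 3 clusters nearest to each member called in NCI-H520 or SJCRH30; the text gives these for the repair lists, and for the marker lists mostly counts. Alternatives were adjusted p alone, limma treat, a filter on low signal, all clusters, eBayes with trend and robust, 1 fit of all 20 arrays, joint quantile normalization, each scale mapped onto the other, a replicate block, and each array left out. Plots were made in matplotlib 3.10.9 (Python 3.11.15).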

Additional observations from a re-analysis of the deposited data

Results flagged for a closer look

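The change of *POLQ* differed between lines by a test of the difference itself, by 1.71 on the log2 scale between NCI-H520 and SJCRH30 (limma adjusted p = 0.00144). All 3 resistant arrays lay above all 3 parental arrays in NCI-H520, and all 3 lay below in SJCRH30. The change of *REV3L* also differed between these lines, by 0.83 (adjusted p = 0.0477), a call that was lost without any 1 of 10 of the 12 arrays. *MAD2L2* was lower in all 5 resistant Rh41 arrays (log2 change -0.41) and higher in all 3 resistant NCI-H520 arrays (0.26) than in every parental array of its line. That opposition between Rh41 and NCI-H520 was not tested, because the lines stand on different scales. By Dixon's test no array of the 5 resistant Rh41 cultures stood apart for any of the 8 members. That test was applied only to groups of at least 4 arrays, so the groups of 3 were not tested.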

How the results depend on the processing

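Of 712 recomputed member changes, 650 kept their direction and their side of the threshold, 36 lost a call, 16 gained one and 10 changed sign. Most of the 712 belong to changes that were not called and had no call to lose. *POLQ* lost its call in 4 of 15 alternatives in NCI-H520 and in 8 of 15 in SJCRH30, and *REV3L* in 2 of 15 in SJCRH30. For the difference between changes, *REV3L* lost it in 15 of 21 and *POLQ* in 0 of 21. The 6 parental differences lost it in 0 to 3 of 21 each. With each set of arrays mapped onto the other's scale, 0 members passed in NCI-H520 (1668 clusters), 0 in SJCRH30 (1163), 2 in Rh41 (3498), 1 for the difference between changes (2629) and 3 for the parental difference. With limma treat against 1.5-fold, 0 members passed in NCI-H520 (1122 clusters), 0 in SJCRH30 (631), 1 for the difference between changes (1626), 3 for the parental difference (4848), and in Rh41 340 clusters passed, against 1554 by the threshold used above. With 20 arrays quantile-normalized together, 1 member passed in SJCRH30, 2 in Rh41 (2946 clusters) and 1 for the difference between changes. By adjusted p alone 2 members and 3629 clusters passed in Rh41. For the difference between changes, where 2 members and 4085 clusters passed above, 1 member and 4425 clusters passed over all clusters, 4 members and 4426 clusters with trend and robust, and 5 members and 5197 clusters in 1 fit of all 20 arrays.

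With arrays left out in turn, the members called ranged over 0 to 1 for NCI-H520, over 1 to 2 for SJCRH30 and over 1 to 2 for the difference between changes. Uncalled log2 changes that turned sign ranged over -0.11 to 0.22 for *REV1* and -0.38 to 0.033 for *REV3L* in NCI-H520, -0.049 to 0.17 for *POLH* and -0.21 to 0.11 for *REV3L* in Rh41, -0.061 to 0.31 for *PRIMPOL* in the difference between changes, and -0.13 to 0.19 for *REV1* between the parental lines. The labels do not state that the replicate numbers pair the samples. With the replicate block, 1 member (*POLQ*) instead of 2 passed for the difference between changes, *REV3L* having an adjusted p of 0.0570, and the counts of members in the lines (1 in NCI-H520, 2 in SJCRH30, 0 in Rh41 over replicates 1 to 3 of each group) did not move. In NCI-H520 alone each sample correlated best with its own number (0.04 to 0.11), a hint from the data and not from the design. The causes of these shifts were not tested.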
